A study of Danio rerio with 2 samples.

Results

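The genes described here encode the acid proteases, the proton pump and the main membrane glycoproteins of the lysosome. They were chosen by name: every identifier whose symbol, case ignored, begins with atp6v, begins with lamp and a number, or is cts followed by 1 letter, with or without a number, paralogue letter or suffix. The rule found 40 of the 24539 genes of the table, namely 22 genes of the vacuolar proton pump, 15 cathepsin genes and 3 lamp genes, under 34 different symbols. Levels come from RNA sequencing of adult wild-type (WT) zebrafish, with 1 library of testes and 1 of ovaries, each made from the pooled organs of 3 adults. The study's title names sex-biased genes and pathways as its question. The deposited values are FPKM, fragments scaled to gene length and to the library's total, so levels can be compared between genes and each is relative to all transcripts of its organ.

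The lysosome is the acidic compartment in which cells digest proteins, lipids and glycans. The vacuolar ATPase pumps protons into it: its cytosolic V1 sector splits ATP and turns a rotor, and its membrane sector, V0, carries the protons across. Cathepsins are the proteases that work in this acid, and the lamp proteins are heavily glycosylated and line the membrane from the inside. In the oocytes of fish, cathepsins also cleave the yolk precursor vitellogenin as it is taken up, and proton pumps acidify the yolk granules. Immune cells use several of the same enzymes to process antigens.

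No difference below has a replicate check or a p-value, because each organ has 1 library. A gene was classed as higher in an organ when (FPKM + 1) differed at least 2-fold and the larger FPKM was 1 or more, a scale that understates the ratio of low genes. The library totals were 562394 FPKM in testis and 572635 FPKM in ovary, and read counts were not used here. Ratios of the lowest values piled up at whole steps that put the worth of 1 read in testis at 1.09 times that in ovary, if the true figure lies between 0.76 and 1.5; the absolute depth is unknown. Setting the median log2 ratio of all genes to 0 shifts every ratio by 0.80 towards ovary, and a trimmed mean of log ratios, which came to 1.01, moved those of the 38 members that reached 1 FPKM by 0.33 to 0.98 towards ovary, so differences near these sizes have to be read against the shift. Of 15 oocyte markers looked for, 14 were matched and all 14 were higher in ovary, where 16.6% of all genes were. In testis, where 45.1% of all genes were higher, 8 of 10 matched Sertoli cell markers and 10 of 11 Leydig cell markers were higher. So were 11 of 12 spermatid and axoneme markers. Of 8 granulosa and theca cell markers, 5 were testis-high and 2, CYP19A1 and FOXL2 (ENSDARG00000068417), were ovary-high. The granulosa and theca list thus did not separate the organs. In organs made of many cell types, a different number of cells of a type and a different amount of RNA per cell cannot be told apart.

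By number, the lysosome genes divided between the organs much as other genes did. Of the 38 members that reached 1 FPKM, 16 (42.11%) were testis-high, 9 (23.68%) were ovary-high and 13 (34.21%) lay within 2-fold. The background over all 19053 genes that reached 1 FPKM was 45.1% higher in testis, 16.6% higher in ovary and 38.3% within 2-fold. The members' median log2 ratio, testis over ovary, was 0.29 (quartiles -0.95 and 1.35), against 0.80 (quartiles -0.51 and 1.80) for all genes. The 2 members below 1 FPKM were ctsbb (0.43 FPKM in testis, 0.09 in ovary) and ctsl.1 (0.20 and 0.37). Setting the median ratio to 0 gave 8 members higher in testis and 16 higher in ovary, and the trimmed mean gave 10 and 17. Over all genes, the median at 0 gave 4777 higher in testis and 5779 higher in ovary of 19053. The trimmed mean gave 5687 and 6019 of 18378. All 9 ovary calls remained under the 4 other scalings tried, whereas 8 of the 16 testis calls did. The median at 0, the trimmed mean and leaving out the 100 most abundant genes lowered the members' median to -0.51, -0.67 and 0.13. Ovary calls were thus bound to hold more often, which does not make them more certain than testis calls. A pseudocount of 5 left 10 members testis-high and 7 ovary-high.

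**Figure D1:**
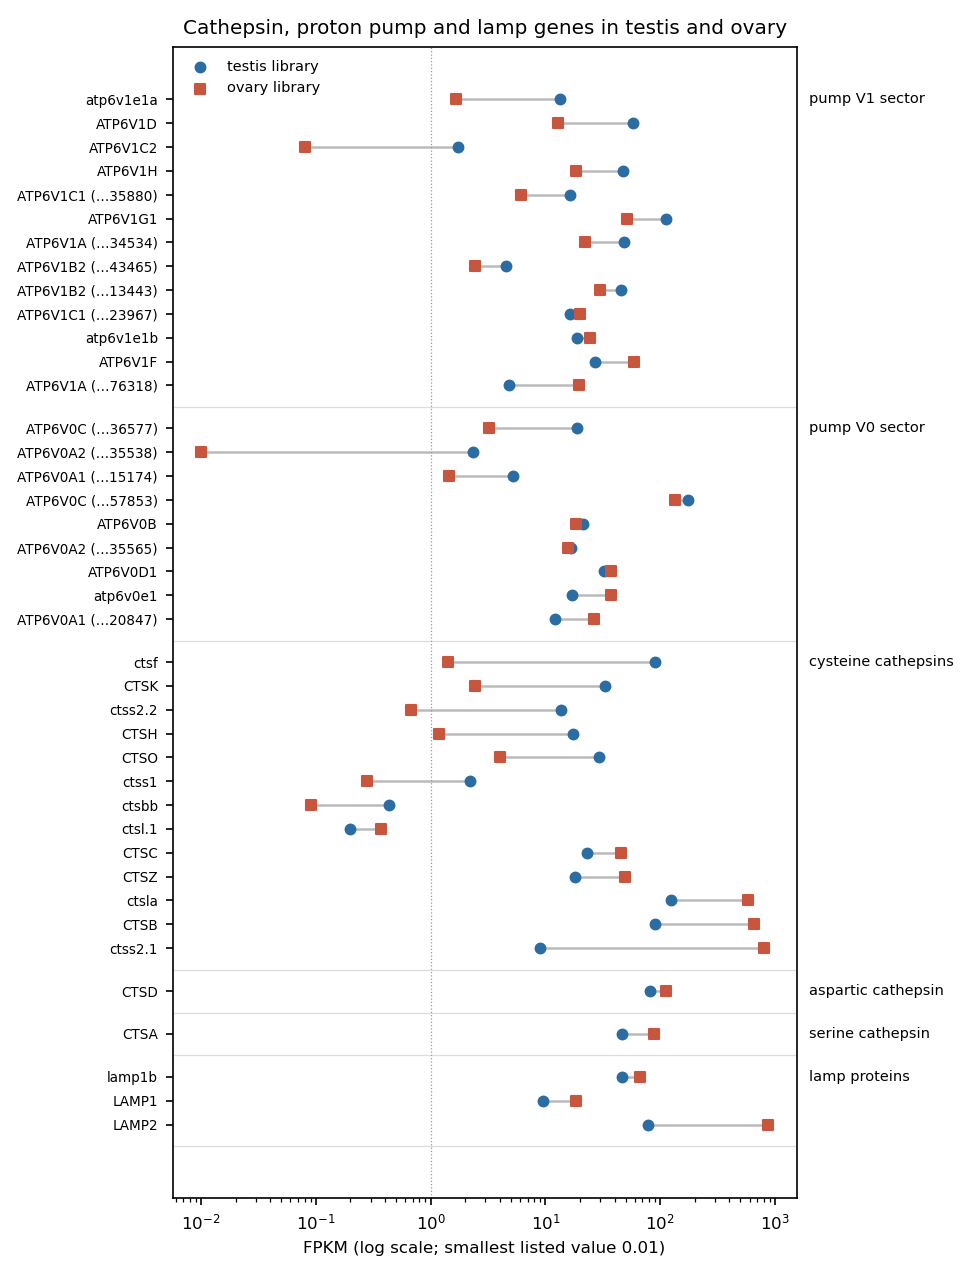
FPKM of the 40 genes in the testis library (blue circles) and the ovary library (red squares), on a log axis, grouped by role and ordered within a group by the log2 ratio; where identifiers share a symbol the last 5 digits of the identifier are given. LAMP2, ctss2.1, CTSB and ctsla lie above 500 FPKM in ovary, while no gene of the set reaches that level in testis.

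By amount, the set leaned to ovary. Together the 40 genes summed to 1432 FPKM in testis, 0.255% of that library, and to 3841 FPKM in ovary, 0.671%. Most of the ovary sum came from 4 genes, picked as the highest there. LAMP2, ctss2.1, CTSB and ctsla reached 2909 FPKM in ovary, 75.74% of the set, and 303 FPKM in testis, 21.15% of the set. The other 36 genes summed to 1129 FPKM in testis and 932 in ovary. Because the 4 were picked by their ovary level, the rest lean less to ovary by construction. This split was not repeated under other scalings. Genes at or over 500 FPKM were 4 of 40 members in ovary (against 0.689% of all genes) and 0 of 40 in testis (against 0.465% of all genes). Among the 7 members that reached 100 FPKM in either library, 4 were higher in ovary, 1 was higher in testis and 2 lay within 2-fold; the background of all genes at that level was 33.3% and 40.7%.

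Cathepsin transcripts were 4.03 times as abundant in ovary, with sums of 2342 FPKM there and 581 FPKM in testis. The direction held under every scaling tried. Relative to the pump, the cathepsin sum was 0.812 times the pump sum in testis and 4.32 times in ovary. Counted by gene, 13 cathepsins reached 1 FPKM, and 6 of them (46.15%) were testis-high, near the background of 45.1%, while 4 (30.77%) were ovary-high and 3 within 2-fold. Either the trimmed mean or a median ratio of 0 made these counts 5 testis-high and 7 ovary-high. Rescaling without the 100 most abundant genes made them 6 and 6. Over all genes the median at 0 gave 4777 testis-high and 5779 ovary-high of 19053, and the trimmed mean 5687 and 6019 of 18378. Without the 100 most abundant genes the all-gene counts were 8824 and 3736 of 19953. Ovary had a few very abundant cathepsins and testis a broader mixture. The 3 leading genes made up 86.9% of the cathepsin FPKM in ovary (ctss2.1, CTSB and ctsla) and 52.6% in testis (ctsla, ctsf and CTSB).

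The cathepsin with the largest bias was ctss2.1 (ENSDARG00000074656), a gene of the cathepsin S group. In mammals cathepsin S is known for trimming the invariant chain of class II antigen presentation. Its transcript had 8.91 FPKM in testis and 799.8 FPKM in ovary, a ratio of 89.8. In ovary it ranked 100th of the 24539 genes and in testis 9227th, and its log2 ratio of -6.34 was the 144th lowest of 19053. It made up 34.2% of the cathepsin FPKM of ovary and 1.53% of that of testis.

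Its paralogues went the other way. The gene ctss2.2 (ENSDARG00000013771) had 13.68 FPKM in testis and 0.68 in ovary, and ctss1 had 2.19 and 0.28. Both were classed as higher in testis, ctss1 by a log2 ratio of 1.32 that fell below 2-fold with the median ratio set to 0. Testis therefore held the 3 cathepsin S genes at 24.8 FPKM in all, of which ctss2.2 gave 55.2%, and ovary held 801 FPKM, of which ctss2.1 gave 99.9%. In the RefSeq annotation of another assembly, GRCz12tu, ctsk, ctss2.1 and ctss2.2 are direct neighbours among the protein-coding genes of chromosome 16. CTSK (ENSDARG00000040251), whose mammalian product degrades collagen in bone, had 33.31 FPKM in testis and 2.44 in ovary. Of these 3 neighbours, the outer genes were thus higher in testis, 13.7-fold for CTSK and 20.1-fold for ctss2.2, and the middle gene was higher in ovary. How reads were divided between ctss2.1 and ctss2.2, which are tandem copies, is not known from the files.

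The other cysteine cathepsins higher in ovary are general lysosomal proteases. CTSB had 89.85 FPKM in testis and 655.68 in ovary, a 7.30-fold difference. Cathepsin L, encoded by ctsla, had 125.17 and 580.72 FPKM, a 4.64-fold difference, and was also the most abundant cathepsin of testis. CTSZ, a carboxypeptidase, had 18 and 49.49 FPKM. These 3 genes were thus well expressed in both organs, unlike ctss2.1, whose level in testis was under 10 FPKM. The further cathepsin B and L genes of the set, ctsbb and ctsl.1, stayed under 1 FPKM in either library.

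The testis side was led by ctsf (ENSDARG00000063095), a cysteine cathepsin. It had 90.96 FPKM in testis and 1.41 in ovary, a ratio of 64.5, and its log2 ratio of 5.25 was the 326th highest of 19053 genes. In testis ctsf gave 15.6% of the cathepsin FPKM, slightly more than CTSB (15.5%), and in ovary 0.0602%. CTSH, an aminopeptidase, had 17.23 FPKM in testis and 1.18 in ovary. CTSO had 29.54 and 4.06 FPKM. The calls of ctsf, CTSK, ctss2.2, CTSH and CTSO remained under the 4 other scalings.

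The remaining cathepsins lay within 2-fold. CTSD, the aspartic protease of the lysosome, had 82.23 FPKM in testis and 111.65 in ovary. CTSA, a serine carboxypeptidase that also protects other lysosomal enzymes, had 46.75 and 88.50 FPKM. CTSC, which in mammals activates the serine proteases of immune granules, had 22.85 and 45.47 FPKM. All 3 had the larger value in ovary, with log2 ratios of -0.44, -0.91 and -0.96. They crossed the 2-fold line with the median ratio set to 0, as did LAMP1 and lamp1b below.

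**Figure D2:**
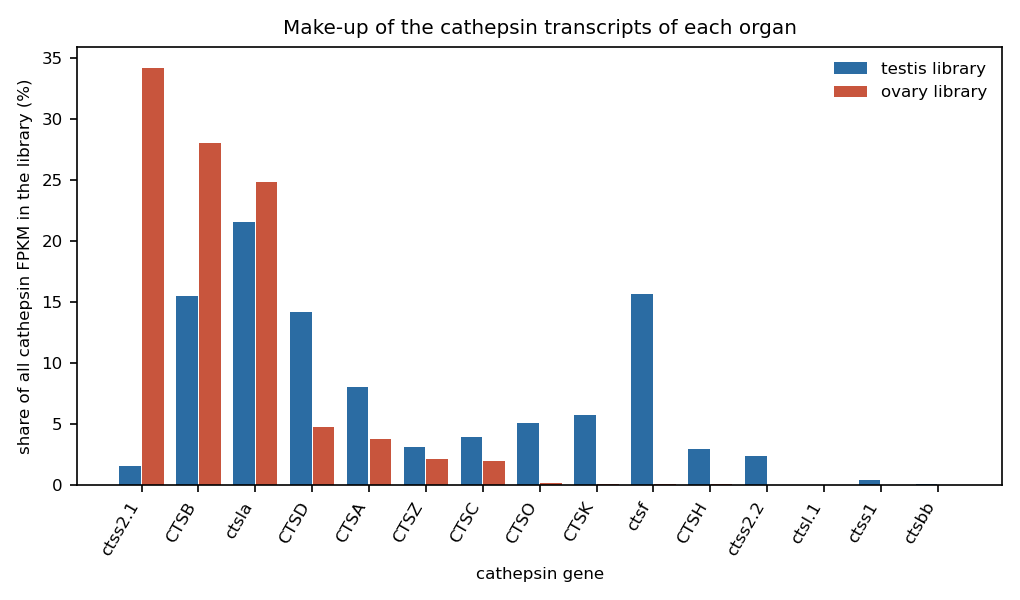
Share of the summed cathepsin FPKM of each library given by each of the 15 cathepsin genes, in percent; blue bars are testis and red bars are ovary, ordered by the ovary value. In ovary ctss2.1, CTSB and ctsla hold 86.9%, while in testis ctsf, which is near 0 in ovary, holds 15.6%.

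All 3 lamp genes had the larger value in ovary, and 1 of them passed 2-fold. With the median ratio at 0, or with the trimmed mean, all 3 did. Under those scalings 5779 of 19053 and 6019 of 18378 genes were called towards ovary. LAMP2 (ENSDARG00000014914) had 78.96 FPKM in testis and 873.05 in ovary, an 11.1-fold difference that made it the most abundant gene of the whole set in ovary and the 88th of all genes there. Its product lines the lysosomal membrane and, in mammals, is needed for the fusion of autophagosomes with lysosomes. The related lamp1b had 46.27 and 66.17 FPKM and LAMP1 had 9.53 and 18.49. LAMP2 thus outnumbered the LAMP1 genes together in ovary (873 against 84.7 FPKM) far more than in testis (79.0 against 55.8 FPKM).

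The proton pump genes behaved unlike the cathepsins and LAMP2. Their sum was 716 FPKM in testis and 542 in ovary, 1.32 times as high in testis on the deposited scale, but the direction turned under a median ratio of 0 (a log2 ratio of -0.40 in place of 0.40) and under the trimmed mean (-0.58). All 22 genes reached 1 FPKM, with 10 testis-high, 4 ovary-high and 8 within 2-fold. With the median ratio at 0, 3 were testis-high and 6 ovary-high, where all genes gave 4777 and 5779 of 19053. Their share higher in testis, 45.45%, was near the background of 45.1%. The log2 ratios ran from -1.82 to 2.44, a much narrower range than the -6.34 to 5.25 of the cathepsins. With a 4-fold rule 3 pump genes were called, all towards testis, where 21.6% of all genes were called towards testis and 6.19% towards ovary.

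**Figure D3:**
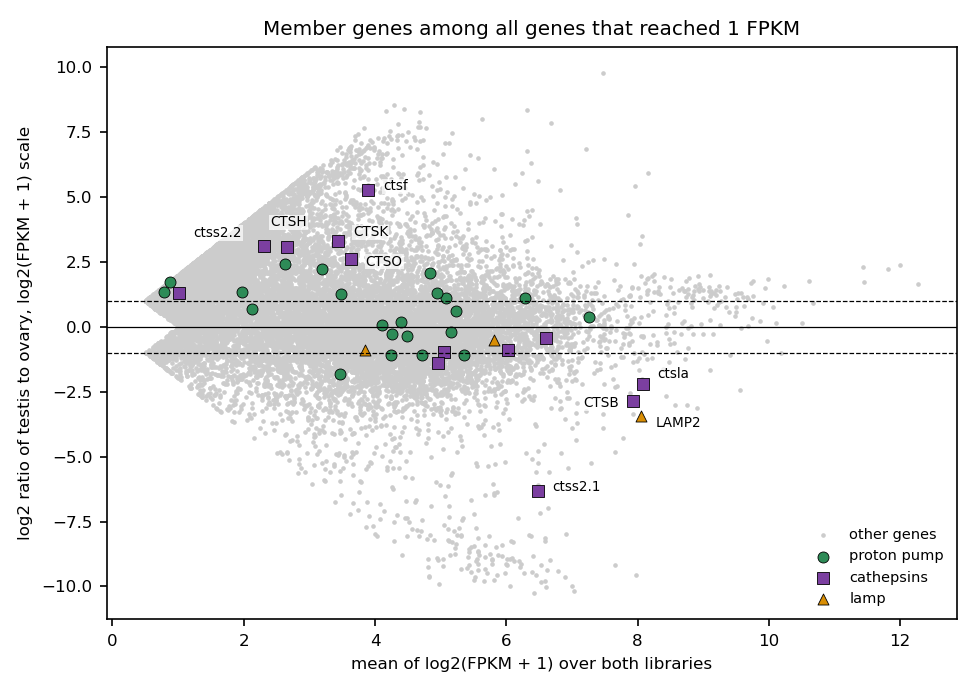
The log2 ratio of testis to ovary (vertical axis) against the mean log2(FPKM + 1) of both libraries (horizontal axis) for the 19053 genes that reached 1 FPKM; grey dots are other genes, green circles the proton pump, purple squares the cathepsins and orange triangles the lamp genes, and dashed lines mark 2-fold. The pump genes lie between -1.82 and 2.44, whereas cathepsins reach -6.34 (ctss2.1) and 5.25 (ctsf).

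The V1 sector is built from 8 kinds of subunit and the V0 genes measured here from 5. Genes for the catalytic subunit A had 53.2 FPKM in testis and 41.8 in ovary when its copies were summed, and those for subunit B, which shares the ATP-binding head, had 50.1 and 32.1 FPKM. Of the rotor, ATP6V1D had 57.93 FPKM in testis and 12.86 in ovary. Its partner in the rotor, ATP6V1F, had 26.91 and 58.95 FPKM. The 2 rotor genes were therefore called in opposite directions, 4.50-fold towards testis and 2.19-fold towards ovary, and both calls remained under the 4 other scalings.

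Among the subunits of the outer stalks, ATP6V1G1 had 113.49 FPKM in testis and 51.79 in ovary, and ATP6V1H, a regulatory subunit, had 47.30 and 18.66. Both were higher in testis on the deposited scale (log2 ratios of 1.12 and 1.30) and lost that call with the median ratio set to 0. The summed genes of subunit C had 34.4 and 26.4 FPKM and those of subunit E had 32.2 and 26.0, differences within 2-fold.

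In the membrane sector the most abundant pump gene of both organs was the proteolipid gene ATP6V0C with the identifier ENSDARG00000057853, whose product forms the rotating ring. It had 174.59 FPKM in testis and 133.38 in ovary. ATP6V0B, a second ring component, had 21.40 and 18.66 FPKM, and ATP6V0D1, which joins the rotor to the ring, had 32.37 and 36.92. These 3 genes differed by less than 1 log2 unit. The small subunit gene atp6v0e1 had 17.12 and 37.02 FPKM and was called higher in ovary, close to the threshold with a log2 ratio of -1.07.

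When copies were summed by subunit, 8 of 13 subunits lay within 2-fold, 3 were higher in testis (D, G and H of V1) and 2 were higher in ovary (F of V1 and e of V0). All 5 of these were subunits with 1 measured gene. Over all genes, 38.3% lay within 2-fold, 45.1% were higher in testis and 16.6% higher in ovary. The subunit sums were counted on the deposited scale only, and G and H lose their calls with the median ratio set to 0. The spread among subunits within an organ, 11.3-fold in testis and 10.6-fold in ovary between the highest and the lowest sum, was wider than the difference between organs for any subunit.

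**Figure D4:**
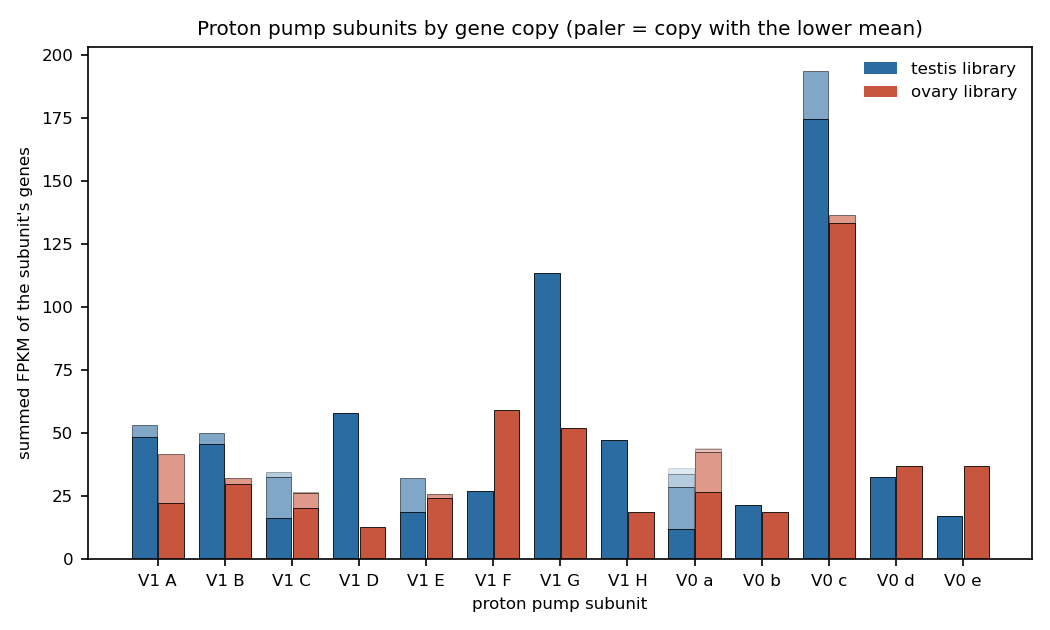
Summed FPKM of the genes of each proton pump subunit in the testis library (blue) and the ovary library (red); segments are gene copies, paler for copies with the lower mean over both libraries. Subunit c of V0 is the highest in both organs (193 and 137 FPKM), and the paler copies of subunits C, E and c give more of the bar in testis than in ovary.

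Beneath the similar totals, copies of a subunit were present in different proportions. The 6 subunits with several genes hold 15 identifiers, and in 5 of them the leading copy was the same gene in both organs. The 9 that were not the leading copy by mean level included 6 called higher in testis, 1 called higher in ovary and 2 within 2-fold. The background is 45.1% of all genes higher in testis. Among genes that reached 10 FPKM it is 36.1%, so among genes that did not it is above 45.1%. The testis-high copies ENSDARG00000015174, ENSDARG00000035538 and ATP6V1C2 stayed under 10 FPKM, as did ENSDARG00000043465, within 2-fold. Of the 6 testis calls, 4 were lost with the median ratio set to 0. The share of each copy within its subunit does not depend on the scaling. The 6 leading copies included 1 higher in testis, 1 higher in ovary and 4 within 2-fold. Among the 9 lesser copies, the secondary ring gene ATP6V0C (ENSDARG00000036577) had 18.75 FPKM in testis and 3.20 in ovary. Of the stalk subunit E, atp6v1e1a had 13.44 and 1.67 FPKM while atp6v1e1b had 18.76 and 24.30. The share of the E transcripts that came from atp6v1e1b was thus 58.3% in testis and 93.6% in ovary.

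Subunit C showed the same order. Its ATP6V1C1 copy ENSDARG00000035880 had 16.25 FPKM in testis and 6.19 in ovary, ATP6V1C2 had 1.74 and 0.08, and the leading copy ENSDARG00000023967 had 16.44 and 20.16. The leading copy gave 47.8% of the C transcripts in testis and 76.3% in ovary. The calls of ENSDARG00000035880 and ATP6V1C2 were lost with the median ratio set to 0, while those of atp6v1e1a and ENSDARG00000036577 remained under the 4 other scalings.

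Subunit A, the catalytic one, had the 1 lesser copy called higher in ovary. ENSDARG00000034534 had 48.38 FPKM in testis and 22.12 in ovary, and the minor copy ENSDARG00000076318 had 4.86 and 19.68. The leading copy gave 90.9% of the ATP6V1A transcripts in testis and 52.9% in ovary, where the copies were nearly equal. For ATP6V1B2 the mixture hardly moved, with 91.0% and 92.5% from ENSDARG00000013443 (45.57 and 29.67 FPKM) and the rest from ENSDARG00000043465 (4.52 and 2.42 FPKM).

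Subunit a, which anchors the pump and directs it to a given membrane, was the pump subunit whose leading gene differed between organs. In testis the highest was the ATP6V0A2 copy ENSDARG00000035565 (16.57 FPKM in testis, 15.76 in ovary), and in ovary it was the ATP6V0A1 copy ENSDARG00000020847 (12.11 in testis, 26.62 in ovary). The second ATP6V0A1 copy, ENSDARG00000015174, had 5.24 FPKM in testis and 1.45 in ovary. The second ATP6V0A2 copy, ENSDARG00000035538, had 2.36 FPKM in testis and was listed at the smallest value of 0.01 in ovary. TCIRG1, named for its human counterpart, encodes a further form of subunit a that in mammals serves osteoclasts and immune cells. Its copies also diverged: ENSDARG00000105142 had 10.90 FPKM in testis and 43.28 in ovary, ENSDARG00000016835 had 5.67 and 0.21. Counted with these, TCIRG1 ENSDARG00000105142 was the leading gene of subunit a in ovary, with 49.6% of 87.3 FPKM, and held 20.6% of 52.9 FPKM in testis.

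Helpers of the pump that fall outside the naming rule, TCIRG1 included, were divided between the organs. Of 17 identifiers, 8 lay within 2-fold, 5 were testis-high and 4 ovary-high, with a median log2 ratio of -0.22. The background over all genes that reached 1 FPKM was 38.3% within 2-fold, 45.1% testis-high and 16.6% ovary-high. The accessory subunit genes ATP6AP2 (26.77 FPKM in testis, 31.44 in ovary) and atp6ap1b (12.70 and 13.32) and the assembly gene ccdc115 (31.15 and 44.24) lay within 2-fold. ROGDI, whose product belongs to the machinery that reassembles the pump, had 8.92 and 114.19 FPKM. The others higher in ovary were OXR1 (16.77 and 42.37), TCIRG1 as above and WDR7 (4.35 and 10.06). Higher in testis, beside the other TCIRG1 copy, were ncoa7a (8.19 and 0.66), RNASEK ENSDARG00000104458 (14.72 and 3.08), DMXL2 (12.79 and 2.87) and atp6ap1a (3.83 and 0.99). The other RNASEK gene, ENSDARG00000069461 (16.55 and 23.26), and DMXL1 (6.13 and 11.12) lay within 2-fold, with the larger value in ovary.

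Soluble hydrolases other than cathepsins showed the same mixture of a few very abundant ovary genes among many moderate ones. Of 42 identifiers matched, 40 reached 1 FPKM, with 9 testis-high, 10 ovary-high and 21 within 2-fold, and the median log2 ratio was 0.21. Against these counts stand 45.1% of all genes testis-high, 16.6% ovary-high and 38.3% within 2-fold. Their sum was 562 FPKM in testis and 1729 in ovary. ACP5, a tartrate-resistant acid phosphatase by its symbol, had 1.66 FPKM in testis and 567.7 in ovary. A gene with the symbol PPT2, a palmitoyl thioesterase (ENSDARG00000093176), had 5.86 and 451.78 FPKM, and the serine carboxypeptidase gene SCPEP1 had 28.66 and 126.01. These 3 genes gave 1145 FPKM in ovary and 36.2 in testis, while the other 39 summed to 583 and 525 FPKM. The 3 have the highest ovary levels of the list, so the rest lean less to ovary by construction.

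Copies again parted in this list. The other PPT2 gene, ENSDARG00000104542, had 14.83 FPKM in testis and 2.79 in ovary. Hydrolases higher in testis included the fucosidase gene FUCA2 (75.16 and 7.79 FPKM) and an acid ceramidase gene, ASAH1 ENSDARG00000034817 (21.90 and 2.75). The other ASAH1 gene, ENSDARG00000037091, had 10.16 and 31.43 FPKM and was called higher in ovary. LGMN, whose product legumain processes cathepsins, had 46.73 and 41.06 FPKM. Across the 180 identifiers of the naming rule and the 7 lysosome lists, 13 were at or over 100 FPKM in ovary and 6 in testis. Over all genes, 3.46% reached 100 FPKM in ovary and 3.65% in testis. At 400 FPKM, a cut at which all genes were not counted, 6 remained in ovary and 0 in testis. Those 6 were LAMP2, ctss2.1, CTSB, ctsla, ACP5 and PPT2 (ENSDARG00000093176). The highest in testis was cst3, with 338.37 FPKM.

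The lipid carriers and activators summed to 378 FPKM in testis and 606 FPKM in ovary. Of 10 identifiers, 5 lay within 2-fold, 2 were testis-high and 3 ovary-high, with a median of -0.25. All genes gave 38.3% within 2-fold, 45.1% testis-high and 16.6% ovary-high. PSAP, the precursor of the saposins that help hydrolases reach lipids, had 231.59 FPKM in testis and 299.05 in ovary, the highest level in testis of this list. The cholesterol carrier gene NPC2 (ENSDARG00000090912) had 57.21 and 183.64, and the ganglioside activator gene GM2A had 13.08 and 48.99. The cystine exporter gene CTNS (6.35 and 0.80) and grna (4.88 and 0.70), a progranulin gene, were higher in testis. The more abundant progranulin gene, grnb, had 31.72 and 35.48 FPKM and lay within 2-fold.

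Of 22 lysosomal membrane protein genes outside the lamp family, 8 were testis-high, 3 ovary-high and 11 within 2-fold, where all genes gave 45.1%, 16.6% and 38.3%. Their median log2 ratio of 0.57, like those of the hydrolases, the lipid carriers and the pump helpers above, lay below the 0.80 of all genes. With a minimum of 5 FPKM, however, the median of all genes was 0.44, below that 0.57. The lists were not counted at that minimum. The tetraspanin gene CD63 had 112.48 FPKM in testis and 5.55 in ovary, opposite to LAMP2. LAPTM4A had 81.61 and 29.43 FPKM, and the endolysosomal cation channel gene TPCN1 had 36.58 and 8.06. Higher in ovary were TMEM192 (10.88 and 27.58), the chloride exchanger gene CLCN7 (7.14 and 16.79) and TPCN2 (3.49 and 9.89).

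Many cystatins inhibit cysteine cathepsins, and 4 of the 10 cystatin family symbols looked for were matched. Of these 4 genes the most abundant in testis was cst3 and in ovary cst14a.2. The cystatin gene cst3 had 338.37 FPKM in testis and 3.99 in ovary, an 84.8-fold difference. The others matched were cst14a.2 (52.17 and 91.87 FPKM), cst14a.1 (9.78 and 11.29) and fetub (3.95 and 0.17). The 4 genes summed to 404 FPKM in testis, against 452 FPKM of cysteine cathepsins there. In ovary they summed to 107 FPKM, against 2142 FPKM of cysteine cathepsins. The cystatin sums leave out the symbols that were not matched, cstb among them, so they do not give a balance of inhibitors and enzymes.

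**Figure D5:**
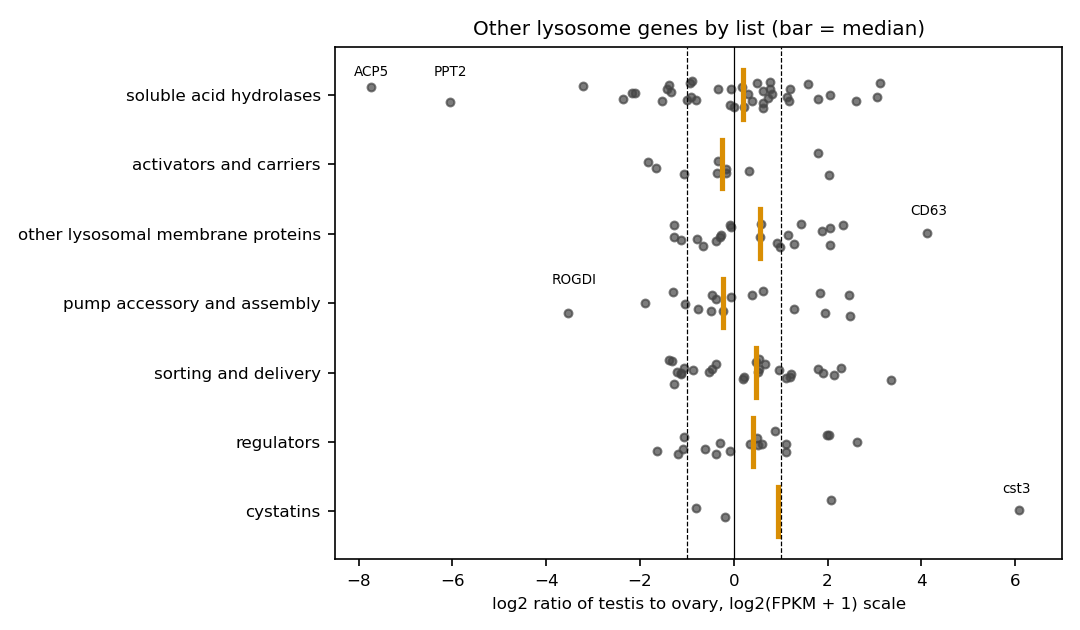
Log2 ratio of testis to ovary for the lysosome genes outside the naming rule that reached 1 FPKM, 1 point per gene and 1 row per list; orange bars are medians, dashed lines mark 2-fold, and points are spread vertically at random within a row. The medians lie between -0.25 and 0.95, while ACP5, PPT2, ROGDI, CD63 and cst3 stand far from their lists.

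Macrophages and neutrophils carry many lysosomes. Of the symbols looked for, 20 of 25 macrophage and 7 of 13 neutrophil markers were matched, and mpeg1.1, mpeg1.2 and mpx were not. Most of the measured markers were higher in testis. The share of all genes between 1 and 10 FPKM was not counted, so this is not read as an excess. Beside both lists stands the background of 45.1% of all genes higher in testis. Among genes that reached 10 FPKM it was 36.1%, so among genes that did not it was above 45.1%. Of the macrophage markers only cd74a, cd74b and CORO1A reached 10 FPKM, so 45.1% is too low a background for that list. Of 21 macrophage marker identifiers that reached 1 FPKM, 14 were testis-high, 2 ovary-high and 5 within 2-fold, with sums over all 25 matched of 275 FPKM in testis and 47.5 in ovary. At the smallest value in ovary were 2 copies of MFAP4, and no marker was there in testis. The 2 higher in ovary were both MFAP4 copies (ENSDARG00000090557 at 1.33 and 9.63 FPKM, ENSDARG00000089667 at 2.18 and 6.34), and the MFAP4 copy with the highest level (ENSDARG00000090783, 8.46 and 6.32) lay within 2-fold. The most abundant of the list were cd74a (118.28 and 5.21), cd74b (49.88 and 2.42) and CORO1A (12.92 and 1.52), which other leukocytes express too. The gene cd68, counted with the lysosomal membrane proteins and not among these markers, had 45.58 and 79.59 FPKM and lay within 2-fold. Neutrophil markers were higher in testis for 4 of 6 genes and higher in ovary for nccrp1 (8.66 and 59.45) and mmp13a (2.51 and 9.09). Their sums were 308 and 72.3 FPKM, but without srgn (266 and 1.34) they were 41.4 and 71.0, the opposite direction. By definition the 6 testis-high cathepsins shared a direction with testis-high markers and the 4 ovary-high cathepsins with ovary-high markers. That shared direction tells nothing of the cells that hold the transcripts. The part of any marked cell type in the cathepsin levels was not tested.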

How the data were processed

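Frozen gonads gave Trizol RNA that was sequenced on the BGISEQ-500, per the labels' protocols. The submitters' processing notes name HISAT, Bowtie2, RSEM and the build GRCz10; their roles and versions, the strand and the annotation are not given here. The authors deposited 2 columns of FPKM, 1 per organ, per the file headers. The smallest value, 0.01 (430 genes in testis, 3540 in ovary), was read as a stand-in for 0. The split of reads between similar paralogues is uncertain.

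Symbols came from a table of gene names, which named 21881 of 24539 identifiers. List members were matched on the symbol, case ignored, or else without a final paralogue letter where the table has that symbol in capitals. The cystatin list had the smallest share of its symbols matched (4 of 10). RefSeq genes of GRCz12tu served only for gene order. Log2 ratios used a pseudocount of 1. The call rule, the trimmed mean (dropping 30% of ratios and 5% of levels from either end) and the steps of low values were tested on simulated data. The steps were simulated and scored only within the range given for the ratio of read worth. A ratio outside that range would therefore be read as one inside it. Alternatives were pseudocounts of 0.1 and 5, minimums of 0 and 5 FPKM, a 4-fold rule, 4 scalings and summed symbols. Planned comparisons of promoter motifs and protein sequences were not run, since no sequences were used here. Members and lists were chosen with earlier results of these data known. Every member may be named. Of each list, the text names genes among the 4 with the highest mean, those called against the list's majority and a fixed set (TFEB, TFE3, tfe3b, MITF, atp6ap1b, ATP6AP2, TCIRG1, LGMN, cst3, grna, PSAP and NPC2). Picked with their values in view were RNASEK, DMXL1, DMXL2, ncoa7a, atp6ap1a, IGF2R, M6PR, SORT1, GGA3, AP1M1, AP1S1, VPS33B, ASAH1 ENSDARG00000037091, FLCN, MTOR, FNIP1, TFEC and rragcb. The hydrolase list first held gcga, a glucagon gene, by mistake; it was left out after the data were seen. 1 gene of the hydrolase list is not reported here by name. Python 3.11.15, numpy 2.4.6, pandas 2.3.3 and matplotlib 3.10.9 were used.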

Additional observations from a re-analysis of the deposited data

How the results depend on the processing

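No paired analysis was possible because each organ has 1 library. Counts are given as higher in testis and higher in ovary, and medians as log2 ratios of testis to ovary. With a pseudocount of 5, the members gave 10 in testis and 21 within 2-fold, the pump genes 5 and 2 with a median of 0.39, and the lamp genes a median of -0.69. Without a minimum the cathepsin median was -0.19. With a minimum of 5 FPKM the medians were -0.06 for all members, 0.39 for the pump and -0.67 for the cathepsins. The median over all genes was then 0.44. The 4-fold rule left 8 and 4 members, 26 within the fold, and 3 and 0 pump genes. The trimmed mean gave 10 and 17 members with a median of -0.67, 5 and 7 pump genes (-0.21), 7 cathepsins in ovary (-1.41) and 3 lamp genes in ovary (-1.79); the log2 ratios of the sums were -0.58 for the pump, -2.99 for the cathepsins and -3.81 for lamp. With the median ratio set to 0 there were 8 and 16 members (-0.51), 3 pump genes in testis (-0.15), 7 cathepsins in ovary (-1.24) and 3 lamp genes in ovary (-1.69), and the sums gave -0.40, -2.81 and -3.63. These shifts come from the scaling itself, which moves every gene the same way. Rescaled with the 100 top genes of each library left out, 186 in all, 2 lamp genes were higher in ovary. No called member changed sign under the alternatives that keep identifiers apart. With identifiers that share a symbol summed, 11 were testis-high and 7 ovary-high; the ATP6V1A sum had a log2 ratio of 0.34, opposite to its copy ENSDARG00000076318, and the ATP6V0A1 sum one of -0.66, opposite to its copy ENSDARG00000015174. With gcga kept, the hydrolases were 9, 10 and 22 within 2-fold. The lists of genes outside the naming rule, marker lists included, were not counted under other scalings. The absolute depth is unknown, so counting error, which is greatest for the genes under 1 FPKM, could not be given.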

Other observations

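Genes that sort enzymes to the lysosome were divided between the organs. Of 27 identifiers, 12 lay within 2-fold, 8 were testis-high and 7 ovary-high, with a median log2 ratio of 0.47. Shares over all genes were 38.3% within 2-fold, 45.1% testis-high and 16.6% ovary-high. The mannose 6-phosphate receptor genes, whose products carry new hydrolases, had 31.86 FPKM in testis and 6.51 in ovary for IGF2R and 21.59 and 31.63 for M6PR. Higher in testis were also SORT1 ENSDARG00000056252 (19.37 and 0.99 FPKM), GGA3 ENSDARG00000103667 (28.33 and 6.85) and ENSDARG00000098871 (5.86 and 0.41), and VPS33B (9.27 and 1.97). The other SORT1 gene, ENSDARG00000029402, had 21.24 and 15.06 FPKM and lay within 2-fold. Higher in ovary were the adaptor gene AP1G1 (48.91 and 128.38 FPKM) and genes of the retromer, which returns receptors from endosomes: VPS35 (21.10 and 50.20), VPS26A (19.74 and 44.42) and VPS26B ENSDARG00000015823 (14.93 and 33.54). The retromer gene VPS29 had 32.91 and 45.97 FPKM. Other adaptor genes did not follow AP1G1: AP1M1 (33.15 and 14.69 FPKM) was higher in testis and AP1S1 (31.18 and 26.79) lay within 2-fold.

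The transcription factor genes known to switch on lysosome genes in mammals were below 10 FPKM in both organs. TFEB had 6.54 FPKM in testis and 0.22 in ovary, TFE3 had 1.55 and 1.00, tfe3b had 1.15 and 0.17, and the higher of the MITF copies (ENSDARG00000003732) had 1.62 and 0.82. The Ragulator and Rag complexes hold the nutrient sensor mTOR at the lysosome. Their measured genes had higher levels than these factors, except rragcb (2.43 and 1.27 FPKM). LAMTOR4 had 10.94 and 36.01 FPKM, LAMTOR1 had 20.44 and 44.39, and rragca had 27.23 and 63.62, all called higher in ovary. LAMTOR3 had 34.84 and 43.17. Of the 18 regulators that reached 1 FPKM, 9 lay within 2-fold, 5 were testis-high and 4 ovary-high, where all genes gave 38.3%, 45.1% and 16.6%. Beside TFEB, the testis-high genes were FLCN (21.47 and 9.33 FPKM), MTOR (15.75 and 6.78), FNIP1 (7.52 and 1.09) and TFEC (3.53 and 0.14). The remaining ovary-high gene was FNIP2 (2.32 and 5.98).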
